A study of Drosophila melanogaster with 9 samples.

Results

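Genes for tRNA synthetases and translation initiation factors were examined in ventral nerve cords (VNCs) of *Drosophila melanogaster* larvae that carried neural tumors with 3 levels of the transcription factor Chinmo. The members were all rows of the deposited expression table whose symbol begins with Aats- (21 tRNA synthetase rows) or with eIF (29 initiation factor rows), together 50 of 15340 rows. The rule uses the symbols and no measured value, although it was set with earlier results of these data known, and the 2 families are described apart. All animals, the controls included, carried UAS-prosperoRNAi and UAS-dicer2 driven by nab-GAL4, a GAL4 trap in the gene *nab* that is active in neural stem cells (neuroblasts), where loss of *pros* is known to make their progeny revert to dividing neuroblasts. The condition P had no further transgene. PC also carried UAS-chinmoRNAi, and PCC also carried UAS-chinmoFL, which over-expresses Chinmo. Crosses spent 7 days at 18°C and 3 days at 29°C before VNCs of late third-instar larvae were dissected. Each library pooled 51 to 82 animals, and there were 3 biological replicates (A, B and C) per condition. A VNC without *pros* RNAi was not analysed here, and each sample is a whole VNC that also holds neurons, glia and adherent tissue.

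Aminoacyl-tRNA synthetases charge each tRNA with its amino acid, and animals use partly separate enzymes in the cytosol and in mitochondria. Initiation factors bring the ribosome and the initiator tRNA to the start codon. eIF2 carries the initiator tRNA and is recharged with GTP by eIF2B, eIF3 holds the small ribosomal subunit, and the eIF4 group binds the cap of the mRNA and unwinds its leader. Neuroblasts regrow between divisions and depend on protein synthesis to do so, and the kinase Gcn2, which senses uncharged tRNA, links the 2 families by acting on eIF2.

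Expression is given as DESeq-normalized counts, which are reads on a gene divided by a size factor of the library. The libraries held 30677075 to 43415151 reads on genes, and 3 reads correspond to 2.50 to 3.47 normalized counts, depending on the library. *chinmo* itself was at 5427, 6330 and 4518 normalized counts in PC replicates A, B and C, at 8190, 8533 and 8819 in P and at 71836, 89792 and 81295 in PCC, so the libraries followed their labels. *pros* was at 36312 ± 5549 (SD, n = 3) in PC, 17754 ± 2091 (SD, n = 3) in P and 9647 ± 1073 (SD, n = 3) in PCC. Markers of other cells moved with the conditions as well. The summed level of 6 neuroblast markers was 58448 to 75868 in PC, 117960 to 132250 in P and 99571 to 117610 in PCC, and that of 7 neuron markers was 55912 to 80340, 35234 to 46438 and 17154 to 28472. From P to PCC, 1 neuroblast gene, *mira*, was called lower, at -0.46 on the log2 scale (limma, adjusted p under 0.05). The 5 others were not called, with *insc* and *grh* at -0.48 and -0.14 and *dpn*, *wor* and *ase* at 0.17, 0.275 and 0.04. Of the neuron genes, *elav* was called lower at this step and *Rbp9* higher, at -0.81 and 1.26, and 5 were not called. The summed level of 5 glia markers was 27389 to 28572 in PC, 27171 to 39251 in P and 31585 to 51444 in PCC. These 5 genes did not move together. From PC to PCC, *nrv2* and *Eaat1* were called higher, with log2 fold changes of 1.23 and 1.03 (limma, adjusted p under 0.05). *repo* and *moody* were called lower, at -1.06 and -0.87, and *Gs2* was not called. Lists for 4 tissues that can adhere to a VNC also varied: 7 fat body genes summed to 180380 to 505640 in PC, 54974 to 212270 in P and 12780 to 123380 in PCC, and 4 hemocyte genes to 10401 to 17819, 5554 to 11223 and 2909 to 7797. The sums of 6 muscle genes were 3669 to 4374, 3706 to 8934 and 835 to 4818, those of 6 salivary gland genes were 63.2 to 577, 232 to 907 and 33.2 to 116, and no marker of these lists was at 0 in all libraries. In such bulk samples, fewer cells of a type cannot be told apart from less RNA per cell, and the part of cell composition in the results below was not tested.

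All cytosolic synthetases were higher on average in P than in PC, and 10 of these 15 genes passed the test. The largest differences were those of *Aats-asn*, *Aats-ile* and *Aats-his*, at 2.51, 2.06 and 1.97 times the PC mean. Over the whole family, 11 of 21 synthetases rose from PC to P, 1 fell and 9 did not pass (limma on log2 of the normalized count plus 1, adjusted p under 0.05 over all genes tested). Among all 11470 genes tested, 14.1% were called higher and 17.9% lower in P. The median log2 fold change of the synthetases was 0.35, beside -0.05 for all genes. The count of 11 became 5 without P replicate A and 4 without P replicate B. In these 2 fits the upward calls over all genes fell as well, from 1617 to 734 and 697.

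**Figure D1:**
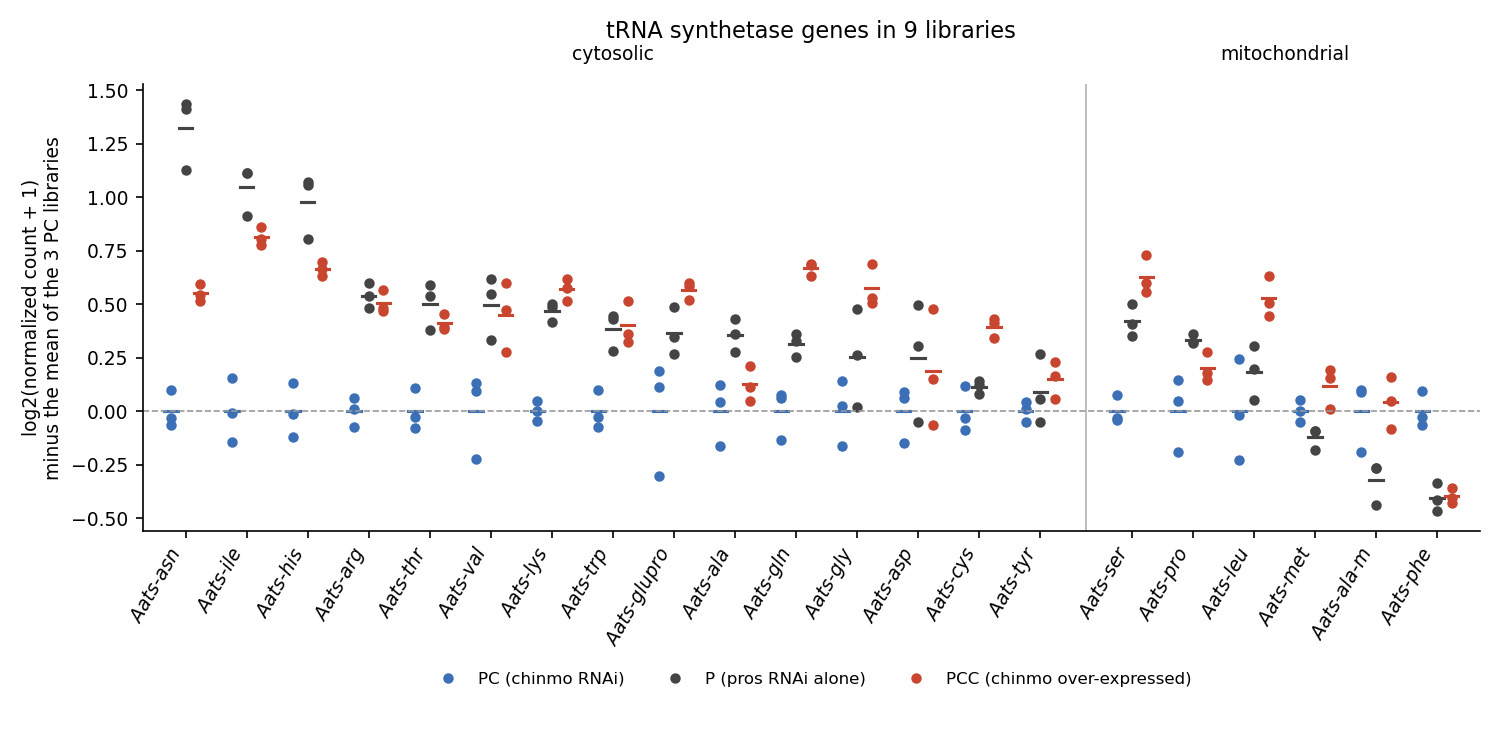
Levels of the 21 tRNA synthetase genes in the 9 libraries, as log2(normalized count + 1) minus the mean of the 3 PC libraries of the same gene; dots are libraries, short bars are means of 3 replicates, and genes are ordered by the difference between P and PC within each compartment. *Aats-asn*, *Aats-ile* and *Aats-his* stand at 1.32, 1.04 and 0.98 in P and lie lower in PCC, whereas *Aats-phe* is below its PC mean in all P and PCC libraries.

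*Aats-asn* (now AsnRS), which charges tRNA with asparagine, was at 7352, 6733 and 6563 normalized counts in PC replicates A, B and C, at 14992, 18560 and 18274 in P and at 10367, 9820 and 10023 in PCC. The 3 conditions did not overlap, and P was the highest. Its log2 fold change was 1.32 from PC to P (SE 0.12, adjusted p = 0.000439, limma) and -0.77 from P to PCC (SE 0.09, adjusted p = 0.00331, limma). It rose at the first step of the Chinmo level and fell at the second. The difference between the steps, that is the change from P to PCC minus the change from PC to P in a fit of all 9 libraries, was -2.09 (SE 0.17, adjusted p = 0.000351, limma).

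*Aats-his* (HisRS), the histidine enzyme, had 6437, 5972 and 7122 normalized counts in PC, 11355, 13648 and 13501 in P and 10304, 10059 and 10522 in PCC. Here too the libraries of the 3 conditions were separate. It rose by 0.98 on the log2 scale from PC to P (SE 0.12, adjusted p = 0.00122, limma) and fell by 0.31 from P to PCC (SE 0.08, adjusted p = 0.0398, limma), and the difference between the steps was -1.29 (SE 0.17, adjusted p = 0.00312). The fall from P to PCC did not pass the test in 5 of the 6 fits that left out a library (1 passed), with log2 fold changes of -0.27 to -0.33 in those 5, without P replicate B or C or any PCC replicate. A part of its exons (8.91% in a later annotation) overlaps *Bx* on the same strand, where reads were left uncounted.

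*Aats-ile* (IleRS), the isoleucine enzyme, was at 12781, 11437 and 10388 normalized counts in PC, 21602, 24831 and 24862 in P and 20073, 19713 and 20887 in PCC. P and PCC were both well above PC, and all PCC libraries lay below all P libraries. The log2 fold change was 1.04 from PC to P (SE 0.12, adjusted p = 0.00108, limma) and -0.23 from P to PCC (SE 0.07, adjusted p = 0.0694, limma, not passed), and the difference between the steps was -1.27 (SE 0.17, adjusted p = 0.00364).

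*Aats-arg* (ArgRS), the arginine enzyme, was at 4188, 3816 and 4043 normalized counts in PC, 5607, 6079 and 5824 in P and 5601, 5940 and 5558 in PCC. It was higher in P than in PC by 0.54 on the log2 scale (SE 0.09, adjusted p = 0.00401, limma), while P and PCC overlapped, with a log2 fold change of -0.03 (SE 0.05). Its difference between the steps was -0.57 (SE 0.13, adjusted p = 0.0281, limma), which passed in 4 of the 9 fits that left out a library and ranged from -0.51 to -0.63 in the 5 that did not pass: without P replicate A, B or C and without PCC replicate A or C. Together with *Aats-asn*, *Aats-his* and *Aats-ile*, it makes 4 synthetases with a lower second step and 0 with a higher one, among 11862 genes of which 3.28% were called lower and 3.64% higher. The calls of *Aats-asn*, *Aats-his* and *Aats-ile* passed in all 9 such fits, and without PC replicate C 7 synthetases had a lower second step and 1, *Aats-ala-m*, a higher one. Without PC replicate C, 854 of all genes were called lower and 900 higher, instead of 389 and 432.

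*Aats-gln* (GlnRS), the glutamine enzyme, behaved differently, with 3364, 3395 and 2940 normalized counts in PC, 4142, 4047 and 3849 in P and 5005, 5193 and 5172 in PCC. The conditions did not overlap and the level rose at both steps. The log2 fold changes were 0.31 from PC to P (SE 0.10, adjusted p = 0.0424, limma) and 0.35 from P to PCC (SE 0.05, adjusted p = 0.00646, limma), and the difference between the steps was 0.04 (SE 0.14, adjusted p = 0.91). Its rise from PC to P passed only without PC replicate C among the 6 fits that left out a library, and that from P to PCC passed in all 6.

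From PC to P, *Aats-lys*, *Aats-val*, *Aats-trp* and *Aats-ala*, for lysine, valine, tryptophan and alanine, rose by 0.47, 0.50, 0.39 and 0.35 on the log2 scale. Without a library, their calls were lost in 1, 2, 3 and 5 of 6 fits, among them for all 4 the fit without P replicate B. *Aats-thr* (ThrRS), the threonine enzyme and the synthetase row with the highest mean, was at 16972, 15454 and 14937 normalized counts in PC, 22894, 23719 and 20513 in P and 20586, 20693 and 21609 in PCC. It rose by 0.50 on the log2 scale from PC to P (SE 0.11, adjusted p = 0.0123, limma), and P and PCC overlapped. The call was lost without P replicate A or B. *Aats-gly* (GlyRS), the glycine enzyme, was at 10442, 9648 and 8472 normalized counts in PC, 13218, 11368 and 9600 in P and 13699, 13449 and 15290 in PCC. Only its change from PC to PCC passed among the pairs of conditions, at 0.57 on the log2 scale (SE 0.11, adjusted p = 0.00572, limma). *Aats-cys* (CysRS), the cysteine enzyme, overlapped between PC and P and rose from P to PCC by 0.28 (SE 0.05, adjusted p = 0.013, limma), a call lost in 2 of 6 fits that left out a library. *Aats-tyr* and *Aats-asp*, for tyrosine and aspartate, passed in no pair of conditions, with log2 fold changes of 0.06 to 0.15 and of -0.06 to 0.25.

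Mitochondrial synthetases, the 6 rows whose current RefSeq symbol ends in -m, did not move together from PC to P. Symbols without this ending were taken as cytosolic, although such a gene can encode both forms. The mitochondrial rows were also less abundant: per kilobase of transcript, their mean over all libraries was 198 to 654 normalized counts, and that of the 15 cytosolic rows was 1446 to 7049. From PC to P, 1 rose, 1 fell and 4 did not pass, where 14.1% of all genes tested were called higher and 17.9% lower. The median log2 fold change was 0.03. It turned to -0.01 when libraries were scaled to the same total, to -0.04 without PC replicate C and to -0.01 without P replicate A. From P to PCC, 5 of the 6 had a log2 fold change above 0 and 2 were called higher. Among all genes tested, 9.74% were called higher at this step and 8.26% lower. The median of this step was 0.22, beside -0.03 for the cytosolic rows and -0.02 for all genes. With libraries scaled to the same total it was 0.14 and 0 were called higher. *Aats-ser* (SerRS-m), the mitochondrial serine enzyme, was at 1186, 1101 and 1092 normalized counts in PC, 1593, 1435 and 1495 in P and 1705, 1864 and 1653 in PCC. Its 3 conditions did not overlap, and it rose by 0.42 from PC to P (SE 0.10, adjusted p = 0.0155, limma) and by 0.63 from PC to PCC (SE 0.10, adjusted p = 0.00246). Its call from PC to P was lost without P replicate A or B.

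*Aats-phe* (PheRS-m), the mitochondrial phenylalanine enzyme, was the 1 synthetase lower in both P and PCC than in PC. It was at 1167, 1139 and 1271 normalized counts in PC, 892, 862 and 944 in P and 884, 928 and 899 in PCC. Every P and PCC library lay below every PC library. The log2 fold changes were -0.41 from PC to P (SE 0.10, adjusted p = 0.0211, limma) and -0.40 from PC to PCC (SE 0.10, adjusted p = 0.0169, limma), and P and PCC overlapped. The fall from PC to P did not pass without PC replicate A, P replicate A or P replicate B, and that from PC to PCC did not pass without PC replicate A or PCC replicate A.

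*Aats-ala-m* (AlaRS-m), the mitochondrial alanine enzyme, was at 1546, 1559 and 1274 normalized counts in PC, 1210, 1074 and 1208 in P and 1502, 1625 and 1373 in PCC. P was the lowest condition in all libraries. It rose by 0.36 on the log2 scale from P to PCC (SE 0.09, adjusted p = 0.0349, limma), and the change of -0.32 from PC to P did not pass (SE 0.12, adjusted p = 0.0771). *Aats-leu* (LeuRS-m), the mitochondrial leucine enzyme, was at 1776, 1481 and 1280 normalized counts in PC, 1851, 1717 and 1554 in P and 2125, 2326 and 2040 in PCC. PC and P overlapped, and PCC lay above both. It rose by 0.34 from P to PCC (SE 0.09, adjusted p = 0.0379, limma). The calls of *Aats-ala-m* and *Aats-leu* passed in 1 and 2 of the 6 fits that left out a library. *Aats-pro* (ProRS-m), the mitochondrial proline enzyme and the row with the lowest mean of the family, was at 678, 574 and 726 normalized counts in PC, 818, 843 and 822 in P and 742, 795 and 725 in PCC, and passed in no comparison.

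From P to PCC the synthetases showed no common direction. Of the 21 members, 4 rose (*Aats-gln*, *Aats-cys*, *Aats-ala-m* and *Aats-leu*), 2 fell (*Aats-asn* and *Aats-his*) and 15 did not pass, where 9.74% of the 11057 genes tested were called higher and 8.26% lower. The median log2 fold change was 0.02, beside -0.02 for all genes, and it was -0.07 with libraries scaled to the same total. The 4 that rose became 1 without P replicate B or PCC replicate A and 2 without P replicate C or PCC replicate B. The 2 that fell became 1 without P replicate B, P replicate C, PCC replicate A or PCC replicate B, and 3 without P replicate A. Leaving out a library also lowered the calls over all genes, from 1077 higher to 415 to 885, and from 913 lower to 234 to 874.

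Between the lowest and the highest Chinmo level, 14 synthetases were higher in PCC than in PC, 1 was lower and 6 did not pass, against 19.9% of 11586 genes called higher and 22.7% called lower. Of the 15 cytosolic genes 12 rose, with a median log2 fold change of 0.51. The whole family had a median of 0.45, beside -0.03 for all genes. Scaled to the same total, the median of all genes moved by -0.12, 8 synthetases were called higher, and the median of the family relative to all genes was 0.47, beside 0.48 without this scaling. The count of 14 was 9 without PCC replicate A, where the upward calls over all genes went from 2305 to 1695. PC to P and PC to PCC share the PC libraries, which favours an overlap, and 10 synthetases rose in both. The overlap over all genes was not counted, so no excess can be read from this number. Over the libraries, synthetase rows took 0.306% to 0.362% of the reads on genes in PC, 0.47% to 0.492% in P and 0.415% to 0.436% in PCC.

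**Figure D2:**
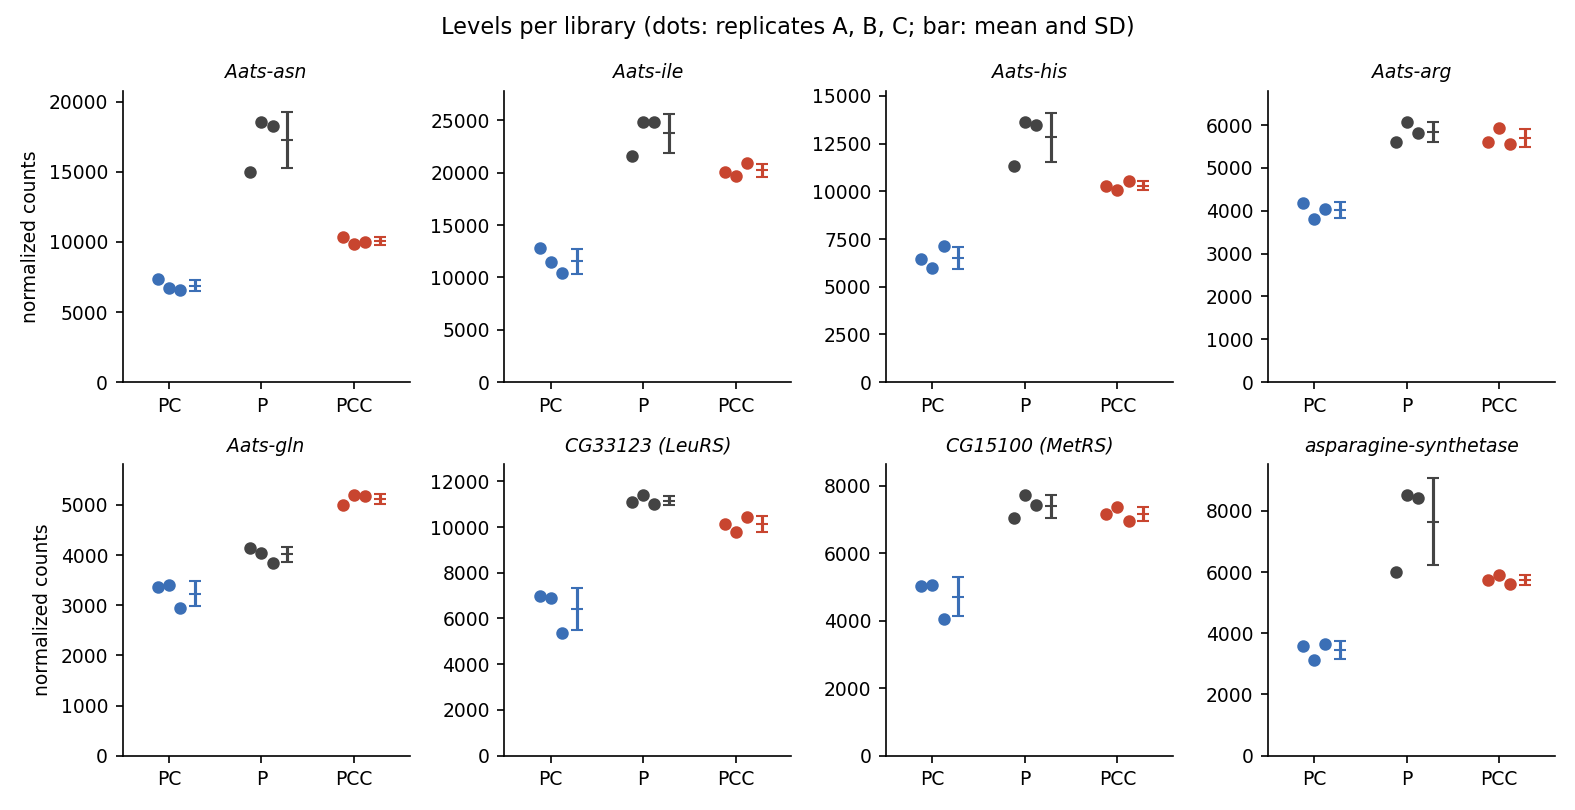
Normalized counts per library for 5 cytosolic synthetases of the main family and for 3 further genes of the lists, *CG33123* (LeuRS), *CG15100* (MetRS) and *asparagine-synthetase*; dots are replicates A, B and C, bars are the mean and SD of 3 replicates, and each axis starts at 0. *Aats-asn* is highest in P at 14992 to 18560, *Aats-gln* is highest in PCC at 5005 to 5193, and P replicate A of *asparagine-synthetase*, at 6002, lies close to the PCC libraries.

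A search for current symbols made of an amino acid and RS, or of AIMP and a number, gave 15 further rows. AIMP proteins are the scaffold of the multi-synthetase complex. No row for a cytosolic phenylalanine enzyme was found by this search or in the family, so the list may be incomplete. *CG33123*, the cytosolic leucine enzyme, was at 6976, 6916 and 5350 normalized counts in PC, 11078, 11389 and 11009 in P and 10141, 9776 and 10450 in PCC. *CG15100*, the cytosolic methionine enzyme, was at 5033, 5046 and 4043 in PC, 7035, 7720 and 7428 in P and 7159, 7368 and 6956 in PCC. Both lay higher in all P than in all PC libraries, with log2 fold changes of 0.81 (SE 0.12, adjusted p = 0.00303, limma) and 0.66 (SE 0.12, adjusted p = 0.00501), and had differences between the steps of -0.95 (adjusted p = 0.0177) and -0.70 (adjusted p = 0.0386). Of the 9 mitochondrial enzymes in this list 0 passed from PC to P (limma, log2 fold changes of 0.09 to 0.32), and *CG16912* (TyrRS-m) and *CG5414* (IleRS-m) rose from P to PCC by 0.50 (SE 0.10, adjusted p = 0.0217, limma) and 0.47 (SE 0.09, adjusted p = 0.0162). Over all 15 rows, 2 rose and 0 fell from PC to P, 3 rose and 0 fell from P to PCC, and 6 rose and 0 fell from PC to PCC. Over all genes tested the shares called higher were 14.1%, 9.74% and 19.9%, so that the count from PC to P was near the background.

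From PC to P, 2 of 3 subunits of eIF2, 2 of 5 of eIF2B and 3 of the 5 eIF3 rows in the family rose, as did *eIF5B* and *eIF6*. In the cap-binding eIF4 group 0 of 5 rows passed in limma and DESeq2 called *eIF-4a* higher (adjusted p = 0.0208); at 14.1% of all genes called higher, a count of 0 among 5 rows does not set this group apart. Of the 29 members, 9 rose from PC to P, 0 fell and 20 did not pass, where 14.1% of all genes tested were called higher and 17.9% lower, with a median log2 fold change of 0.27 beside -0.05 for all genes. At an unadjusted p under 0.05, 13 were higher and 0 lower, where 4917 of 11470 genes passed in either direction. On the recovered reads, edgeR and DESeq2 called 0 lower as well, beside 1980 and 2205 of all genes. The count of 9 was 5 without PC replicate A or B and 2 without P replicate A or B. Upward calls over all genes were 1199 and 1224 without PC replicate A or B and 734 and 697 without P replicate A or B, instead of 1617. Initiation factor rows took 1.04% to 1.11% of the reads on genes in PC, 1.19% to 1.32% in P and 1.19% to 1.31% in PCC.

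**Figure D3:**
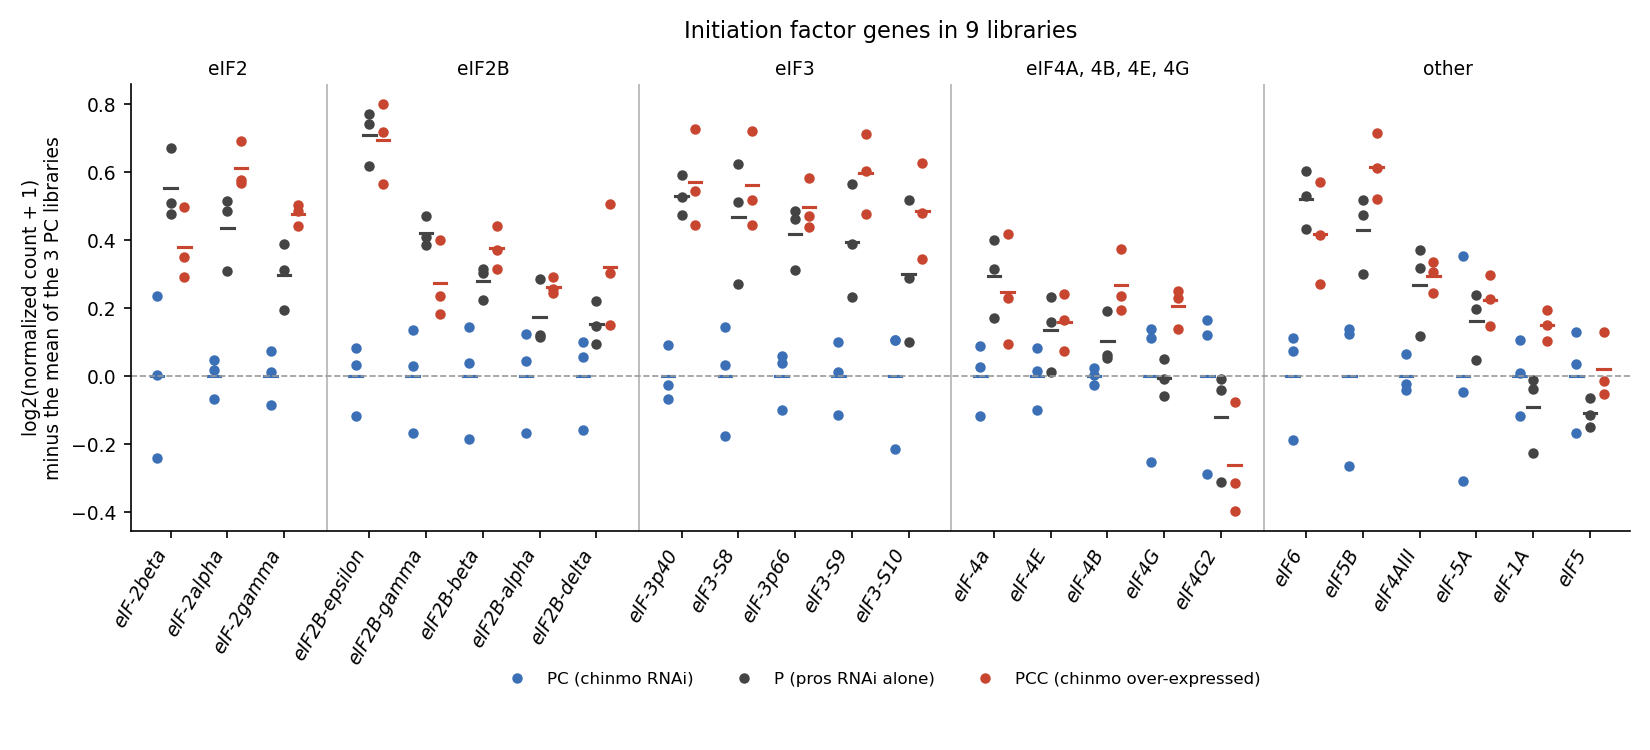
Levels of 24 initiation factor genes in the 9 libraries, as log2(normalized count + 1) minus the mean of the 3 PC libraries of the same gene, grouped by complex; dots are libraries and short bars are means of 3 replicates. The 3 subunits of eIF2, the 5 of eIF2B and the 5 eIF3 rows shown have P and PCC means above the PC mean, and *eIF2B-epsilon* is the highest in P at 0.71.

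*eIF2B-epsilon*, the catalytic subunit that exchanges GDP for GTP on eIF2, was at 2571, 2485 and 2241 normalized counts in PC, 4144, 4061 and 3730 in P and 3992, 3597 and 4227 in PCC. P and PCC overlapped each other and lay above PC. Its log2 fold change was 0.71 from PC to P (SE 0.10, adjusted p = 0.00204, limma) and -0.02 from P to PCC (SE 0.08, adjusted p = 0.907). It was the 1 initiation factor with a difference between the steps, at -0.73 (SE 0.16, adjusted p = 0.0274, limma). That call passed in 4 of the 9 fits that left out a library and failed without P replicate A, B or C and without PCC replicate A or B, with values of -0.66 to -0.82. Without PC replicate C, 5 initiation factors passed, in a fit where 854 of all genes were called lower and 900 higher instead of 389 and 432. Of the other eIF2B subunits, *eIF2B-gamma*, its partner in the catalytic part, rose by 0.42 from PC to P (SE 0.11, adjusted p = 0.0204, limma), and *eIF2B-beta*, of the regulatory part, rose by 0.38 from PC to PCC (SE 0.11, adjusted p = 0.0298). Without a library, these calls passed in 2 and 1 of 6 fits.

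*eIF-2beta* was at 11990, 10137 and 14095 normalized counts in PC, 17049, 19052 and 16671 in P and 14663, 15269 and 16888 in PCC. It rose by 0.55 from PC to P (SE 0.14, adjusted p = 0.0208, limma), and PC replicate C was the highest of the PC libraries. The call held without PC replicate C or P replicate C, and was lost in the 4 other fits that left out a library. *eIF-2alpha*, the subunit that stress kinases phosphorylate, was at 7752, 7157 and 7589 in PC, 10703, 10490 and 9289 in P and 11185, 11105 and 12115 in PCC. The 3 conditions were separate, and it rose by 0.44 from PC to P (SE 0.10, adjusted p = 0.0136, limma) and by 0.61 from PC to PCC (SE 0.09, adjusted p = 0.00163). Its call from PC to P was lost without P replicate A or B. *eIF-2gamma*, the GTP-binding subunit, rose by 0.48 from PC to PCC (SE 0.09, adjusted p = 0.00454, limma). It shares 15.98% of its exon bases with *Su(var)3-9* on the same strand in a later annotation.

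Of the 5 eIF3 rows with the eIF prefix, 3 rose from PC to P and 5 from PC to PCC. Among all genes tested, 14.1% and 19.9% were called higher. Of 8 further eIF3 subunits without the prefix, 2 rose from PC to P and 5 from PC to PCC. *eIF-3p40* (eIF3h) was at 15825, 15381 and 17144 normalized counts in PC, 24250, 23190 and 22376 in P and 23475, 21916 and 26672 in PCC. It rose by 0.53 from PC to P (SE 0.10, adjusted p = 0.00743, limma), a call that passed in all 6 fits that left out a library, and P and PCC overlapped. *eIF3-S8* (eIF3c), a core subunit, was at 25542, 23643 and 20465 in PC, 35613, 32990 and 27924 in P and 33132, 31490 and 38104 in PCC. It rose by 0.47 from PC to P (SE 0.14, adjusted p = 0.0397, limma), which was lost without PC replicate A or B or P replicate A or B. *eIF3-S9* (eIF3b), another core subunit, was at 26810, 25187 and 23080 in PC, 36976, 32692 and 29383 in P and 37932, 34780 and 40907 in PCC. Its change of 0.40 from PC to P did not pass (SE 0.13, adjusted p = 0.0535, limma), and from PC to PCC it rose by 0.60 (SE 0.12, adjusted p = 0.00575).

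*eIF6*, which keeps the ribosomal subunits apart and also acts in the making of the large subunit, was at 4912, 4100 and 5039 normalized counts in PC, 7093, 6734 and 6292 in P and 6215, 5627 and 6936 in PCC. P and PCC lay above PC and overlapped each other. It rose by 0.52 from PC to P (SE 0.11, adjusted p = 0.0107, limma), and the call was lost without P replicate A or B. *eIF5B*, which joins the subunits at the start codon, was at 7673, 7747 and 5859 in PC, 10071, 9778 and 8672 in P and 10091, 10747 and 11542 in PCC. It rose by 0.43 from PC to P (SE 0.14, adjusted p = 0.0446, limma) and by 0.62 from PC to PCC (SE 0.13, adjusted p = 0.00862). The first call was lost without PC replicate A or any of the P replicates.

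In the cap-binding group, *eIF-4B*, a cofactor of the helicase, was the 1 row that passed in limma. It rose by 0.27 on the log2 scale from PC to PCC (SE 0.09, adjusted p = 0.0435, limma), a call that was lost in 5 of 6 fits without a library. *eIF-4E*, the main cap-binding protein, was at 18398, 16978 and 19254 normalized counts in PC, 21361, 20333 and 18326 in P and 19159, 20379 and 21485 in PCC. These ranges overlapped, and the log2 fold changes were 0.13 from PC to P (SE 0.11) and 0.03 from P to PCC (SE 0.08). *eIF-4a*, the RNA helicase and the initiation factor with the highest mean, was at 99510, 90027 and 103804 in PC, 128897, 121510 and 109899 in P and 114376, 104241 and 130491 in PCC. It did not pass from PC to P at 0.30 (SE 0.16, adjusted p = 0.199, limma). *eIF4AIII*, a helicase of the exon junction complex with a sequence like that of eIF4A, was at 6007, 5581 and 5649 in PC, 7422, 7166 and 6240 in P and 6808, 7101 and 7242 in PCC, and rose by 0.30 from PC to PCC (SE 0.08, adjusted p = 0.0247, limma). The scaffold *eIF4G* was at 27027, 27535 and 21019 in PC, 25884, 24853 and 24019 in P and 27555, 29770 and 29307 in PCC. Its paralog *eIF4G2*, known from the male germ line, was at 8211, 8463 and 6177 in PC, 7503, 7341 and 6076 in P and 5731, 6068 and 7154 in PCC. Neither *eIF4G* nor *eIF4G2* passed in any pair of conditions in limma, and both were lowest among the PC libraries in replicate C. From P to PCC, *eIF4G* had a log2 fold change of 0.21 (SE 0.06, adjusted p = 0.0545, limma). At that step edgeR and DESeq2 called *eIF4G* higher (adjusted p = 0.0339 and 3.88e-05).

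From P to PCC, 0 of the 28 initiation factors tested passed in either direction, where 9.74% of all genes tested were called higher and 8.26% lower, and *eIF4E-4* was too low to be tested. At an unadjusted p under 0.05, 5 were higher and 0 lower, where 3948 of 11057 genes passed in either direction. On the recovered reads, edgeR called 2 initiation factors higher and DESeq2 called 6. Over all genes, edgeR called 1336 higher and DESeq2 called 1695. With libraries scaled to the same total, 2 initiation factors were called lower, beside 1620 of all genes. Apart from 5 eIF4E paralogs of low level, all 24 members changed by less than 0.25 on the log2 scale, with SEs of 0.06 to 0.12. The median was 0.09, beside -0.02 for all genes. From PC to PCC, 13 of 29 rose and 0 fell, where 19.9% of all genes tested were called higher and 22.7% lower, and the median was 0.27. At an unadjusted p under 0.05, 17 were higher and 0 lower, where 5848 of 11586 genes passed in either direction. The count of 13 was 8 without PCC replicate A or C, and 8 with libraries scaled to the same total, where the median relative to all genes was 0.32 beside 0.30. Upward calls over all genes went from 2305 to 1695 and 1827 without PCC replicate A or C, and to 1605 with this scaling. Of these 13, 7 had also risen from PC to P, a comparison with the same PC libraries, and the overlap over all genes was not counted.

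Per kilobase of transcript the members spanned a wide range. *eIF-5A* was the highest row, at 74529 normalized counts per kilobase over all libraries. Its current symbol is eEF5, since the protein acts mainly in elongation and termination. It was at 49254, 41012 and 64995 normalized counts in PC, 60022, 58248 and 52556 in P and 56320, 59468 and 62537 in PCC, and PC replicate C was the highest of all 9 libraries. On the same scale *eIF-4a* had 55130, *eIF-4E* 10886, the 5 eIF3 rows 5701 to 14129, the 3 eIF2 rows 5656 to 13378 and the 5 eIF2B rows 1288 to 1833. *eIF5*, at 4591 per kilobase, shares 80.8% of its exon bases with *CG46312* in a later annotation, and *CG46312* is not a row of the table.

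*Drosophila* has several further eIF4E genes, some of which are known for expression in testis. Low levels were found in 5 of these rows, and in 4 of them PC replicate A stood apart. *eIF4E-3* was at 49.3, 2.29 and 9.37 normalized counts in PC, 0.928, 4.19 and 2.50 in P and 8.55, 0 and 2.31 in PCC. *eIF4E-4*, the initiation factor with the lowest mean, was at 24.2, 0 and 0 in PC, 0.928, 0 and 1.66 in P and 7.60, 0 and 1.16 in PCC. *eIF4E-5* was at 28.8, 0 and 0 in PC, 2.78, 2.09 and 1.66 in P and 9.50, 1.11 and 1.16 in PCC. In these rows PC replicate A was the highest library, and PCC replicate A was next except in *eIF4E-3*, where PC replicate C was. *eIF4E-7* was at 22.3, 3.44 and 3.75 in PC, 5.57, 4.19 and 4.99 in P and 3.802, 0 and 1.16 in PCC. *eIF4E-6* was at 48.3, 25.2 and 38.4 in PC, 26.0, 27.2 and 24.95 in P and 35.2, 19.9 and 35.9 in PCC, so its libraries differed less.

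**Figure D4:**
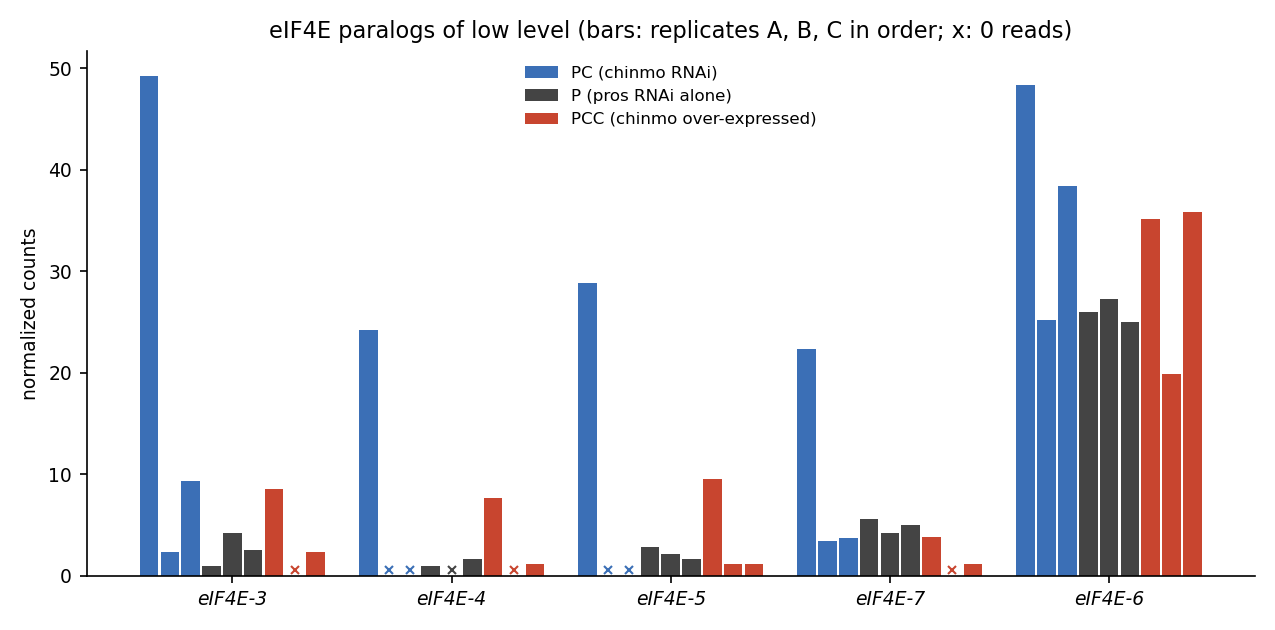
Normalized counts of 5 eIF4E paralogs of low level in the 9 libraries; bars show replicates A, B and C of PC, P and PCC in that order, a cross marks a library with 0 reads, and the axis starts at 0. PC replicate A holds 22.3 to 49.3 normalized counts in *eIF4E-3*, *eIF4E-4*, *eIF4E-5* and *eIF4E-7*, where the next highest library is at 9.50.

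Together *eIF4E-3*, *eIF4E-4*, *eIF4E-5* and *eIF4E-7* had 134 reads in PC replicate A, 31 in PCC replicate A and 1 to 14 in the other libraries. Where a library has 0 reads, up to 3 reads are allowed by counting error. Other genes followed the same library: paralogs named eIF3d2 (*CG4810*) and eIF4H2 (*CG1340*) in the current annotation were at 35.3 and 37.2 normalized counts in PC replicate A and at no more than 6.65 and 5.70 elsewhere. Of 5 testis markers, *Mst84Dc*, a sperm tail gene, was at 61.3 in PC replicate A, at 14.3 in PCC replicate A and at 0 to 4.64 elsewhere, and *betaTub85D*, the testis tubulin, was at 239 in PC replicate A and at 10.4 to 120 elsewhere, and was called lower in P than in PC. *sa* was at 5.58 in PC replicate A and 0 to 2.29 elsewhere, while *bam* and *can*, which act earlier in the male germ line, were at 1638 and 315 in PC replicate A, within the range of the other libraries (1307 to 2462 and 253 to 347). The part of germ line RNA in these rows was not tested. None of the 5 eIF4E paralogs passed between conditions.

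The PC libraries differed among themselves with transcript length. In PC, the log2 level of a member in replicate C minus the mean of A and B ran from -0.45 to 0.53 and had a Spearman correlation of -0.858 with transcript length, across 45 members without the low eIF4E paralogs. The same correlation was -0.066 in P and -0.06 in PCC. The members share each library and are no independent replicates, so these values are descriptions. Synthetase transcripts were 1517 to 5405 bases long, with a median of 2545, and initiation factor transcripts 686 to 8889, with a median of 1646. *eIF-5A* and *eIF-2beta*, with short transcripts, were highest in PC replicate C among the PC libraries, and *Aats-glupro* and *eIF4G*, with long ones, were lowest there. With a trend on length removed from each library, 14 instead of 9 initiation factors were called higher in P than in PC. The upward calls over all genes rose as well, from 1617 of 11470 tested to 2915 of 11367.

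**Figure D5:**
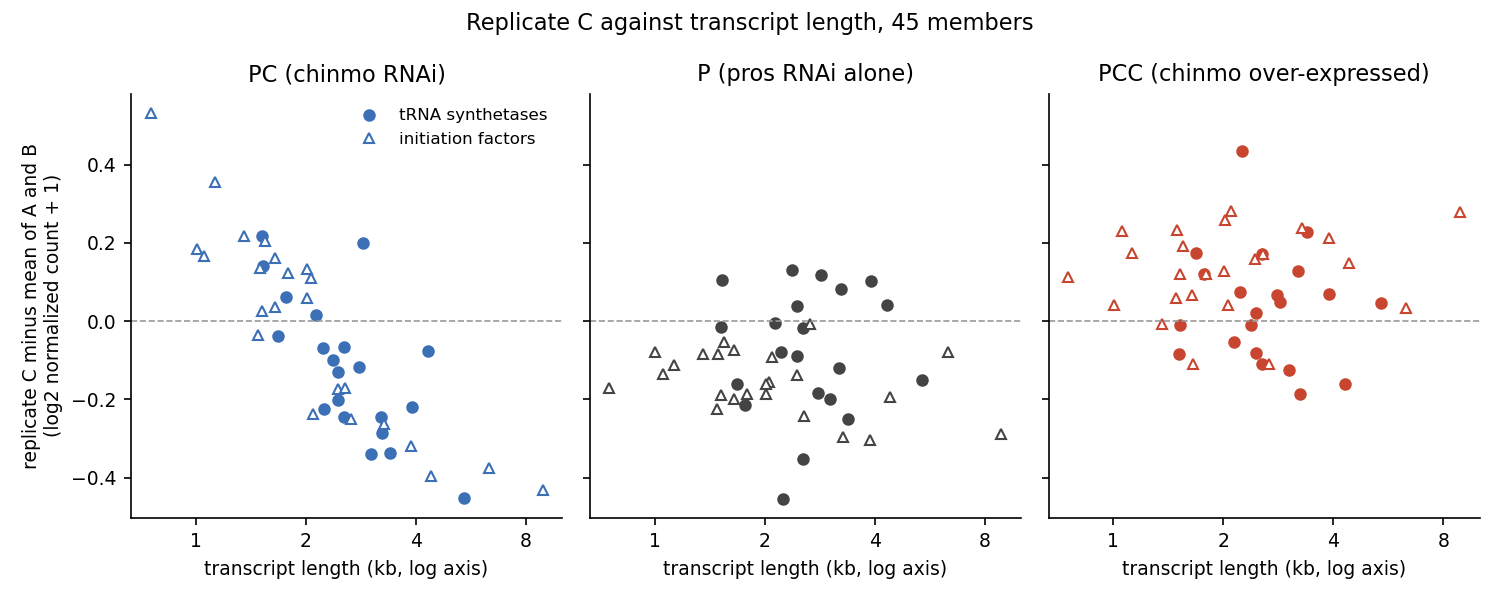
Difference of replicate C from the mean of replicates A and B, in log2(normalized count + 1), against transcript length in kilobases (log axis) for 45 members in PC, P and PCC; filled circles are tRNA synthetases and open triangles initiation factors. In PC the values fall from 0.53 for the shortest transcript toward -0.45 for the longest ones, and in P and PCC the correlations with length are -0.066 and -0.06.

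Other genes of translation were counted in the same fits, in which 14.1%, 9.74% and 19.9% of all genes tested were called higher from PC to P, P to PCC and PC to PCC, and 17.9%, 8.26% and 22.7% lower. Among 17 initiation factor rows without the eIF prefix in the table, 3 rose and 0 fell from PC to P, a share near that of all genes: *CG5642* (eIF3l) by 0.53 (SE 0.11, adjusted p = 0.0102, limma), *Tango7* (eIF3m) by 0.47 (SE 0.12, adjusted p = 0.0219) and *ligatin* (eIF2D) by 0.54 (SE 0.09, adjusted p = 0.00389). From P to PCC, *CG7414* (eIF2A) rose by 0.37 (SE 0.05, adjusted p = 0.0072, limma) and *4EHP*, a cap-binding repressor, by 0.26 (SE 0.06, adjusted p = 0.0276). From PC to PCC 8 of the 17 rose and 0 fell, 5 of them among the 8 eIF3 subunits of this list.

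Of 8 elongation and termination genes 0 rose and 1 fell from PC to P. That gene was *Ef1alpha100E*, the eEF1A form known from differentiated cells, at 35388, 43485 and 38663 normalized counts in PC, 12333, 13104 and 15052 in P and 6714, 6870 and 4573 in PCC. It fell at both steps, with log2 fold changes of -1.54 (SE 0.13, adjusted p = 0.000378, limma) and -1.18 (SE 0.16, adjusted p = 0.00636). The summed neuron markers were lower at each step too, although *Rbp9* among them rose from P to PCC, and their part was not tested. *Ef1alpha48D*, the general form, had a log2 fold change of 0.49 from PC to P (SE 0.25, adjusted p = 0.176, limma). From P to PCC 1 rose (*Elf*, the release factor eRF3) and 1 fell, and from PC to PCC 3 rose and 1 fell.

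Among 13 genes that control initiation, 2 rose and 0 fell from PC to P, near the 14.1% of all genes called higher. *Thor*, the 4E-BP protein that blocks eIF4E, was at 3819, 3948 and 5149 normalized counts in PC, 11704, 13972 and 12186 in P and 13495, 13274 and 18412 in PCC. It rose by 1.56 from PC to P (SE 0.14, adjusted p = 0.000441, limma), and its difference between the steps was -1.32 (adjusted p = 0.0235). *Pdcd4*, which binds eIF4A, rose by 0.72 from PC to P (SE 0.13, adjusted p = 0.00501, limma). *Gcn2* was at 3015, 3045 and 2135 in PC, 2450, 2225 and 2138 in P and 3727, 4003 and 3482 in PCC, and rose from P to PCC by 0.72 (SE 0.08, adjusted p = 0.00278, limma), with a difference between the steps of 0.97 (adjusted p = 0.0422). *raptor*, of the TOR complex, and *4EHP* also rose at that step, by 0.21 and 0.26, and 0 of the 13 fell. From PC to PCC 6 rose and 0 fell.

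The list of genes linked to the transcription factor ATF4 (*crc* in flies), which is translated when eIF2 is phosphorylated, had 5 of its 6 genes matched. *asparagine-synthetase*, which makes the amino acid used by *Aats-asn*, was at 3572, 3112 and 3661 normalized counts in PC, 6002, 8510 and 8428 in P and 5734, 5897 and 5594 in PCC. It rose by 1.13 from PC to P (SE 0.15, adjusted p = 0.00188, limma), the change of -0.40 from P to PCC did not pass (SE 0.13, adjusted p = 0.0838), and the difference between the steps was -1.53 (adjusted p = 0.00625). P replicate A was the lowest P library here as in *Aats-asn*, *Aats-his* and *Aats-ile*. *CG3011* (Shmt), the serine hydroxymethyltransferase, rose from P to PCC by 0.59 (SE 0.07, adjusted p = 0.00331, limma). *crc* did not pass at either step, at 0.16 and -0.06. *Nmdmc*, the remaining gene of the list, had log2 fold changes of 0.12 from PC to P, -0.64 from P to PCC and -0.52 from PC to PCC. None of these passed (SE 0.27, 0.23 and 0.18, limma). Over the 5 genes, 2 rose and 0 fell from PC to P, 1 rose and 0 fell from P to PCC, and 3 rose and 0 fell from PC to PCC. The shares of all genes called higher were 14.1%, 9.74% and 19.9%. *Thor* and *crc* are also in the list of genes that control initiation, and *Thor* is among those that rose from PC to P.

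In the Myc network, which drives growth and ribosome production, 3 of 4 genes rose and 0 fell from PC to P. From P to PCC 0 passed, with 0.22 on the log2 scale for *dm* (SE 0.09, limma). Among all genes tested, 14.1% were called higher and 17.9% lower from PC to P, and 9.74% and 8.26% from P to PCC. *dm*, the fly *Myc*, was at 8858, 9394 and 6966 normalized counts in PC, 16094, 15882 and 15188 in P and 16856, 17238 and 20904 in PCC, and rose by 0.91 from PC to P (SE 0.13, adjusted p = 0.00233, limma). *Max*, its partner, rose by 0.48 (SE 0.11, adjusted p = 0.0123, limma) and *bigmax*, the partner of *Mondo*, by 0.76 (SE 0.13, adjusted p = 0.00455). From PC to PCC, where 19.9% of all genes tested were called higher, the 3 were higher again. *Mnt*, which opposes Myc, passed in no comparison.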

How the data were processed

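RNA of pooled VNCs was sequenced as single stranded reads from poly-A libraries. The authors aligned the reads with TopHat2 2.0.9 and Bowtie2 2.1.0 to dm3, counted them per gene on the opposite strand with HTSeq 0.5.3p9, which leaves reads on 2 genes uncounted, and normalized the counts with DESeq. The deposited signal values are reads divided by a size factor per library. All values (100%) were whole multiples of 1 read within 0.001, so the reads were recovered. Sampling noise matters little at 30677075 to 43415151 reads per library, except near the floor of 3 counts. The table has 1415 rows without reads, and 0 of its columns were left unmapped.

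Each pair of conditions was fitted in its 6 libraries with limma 3.58.1 (R 4.3.3) on log2(value + 1), which understates changes of low genes, keeping genes with a summed value of 15 or more, and with an intensity trend in eBayes. Two-sided p-values were adjusted by the Benjamini-Hochberg method, and 0.05 was the limit for a call. The difference between the steps was a contrast over 9 libraries. No batch is stated per library. Replicates are defined in the methods as progeny of different parent flies. The script was tested on simulated data.

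Alternatives were pseudocounts of 0.5 and 10, no filter, a minimum mean of 10, scaling to the same total or upper quartile, eBayes without trend, all 9 libraries, a replicate block, removal of a length trend, edgeR 4.0.16 with TMM, DESeq2 1.42.0 and each library left out. Of 15340 rows, edgeR tested 11470 between PC and P and called 1735 higher and 1980 lower. It called 1336 and 744 from P to PCC, and 2857 and 2276 from PC to PCC. Members and lists were chosen with earlier results of these data known. Values in every library are given for members past the threshold in both steps, for up to 5 called members with the largest change per family and comparison, for eIF4A, eIF4E and eIF4G rows, for the highest and lowest rows, for *chinmo* and *pros*, and for some list genes; *Aats-phe* and *eIF-5A* were added after their values were seen. Current symbols, transcript lengths (14953 rows) and exon overlaps came from later RefSeq and Ensembl releases, which matched all 50 members; no coordinates were taken from them, and no sequence is shown. The subdivision of the families, the lists by kind and the compartment counts under the alternatives were made after values had been seen.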

Additional observations from a re-analysis of the deposited data

How the results depend on the processing

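Of 250 counts of called members under the alternatives, 191 stayed within 1.5 times the main count and 59 moved; no member named by the rule changed direction, and 65 of 571 fits of single members no longer passed. Leaving out one library, the synthetases called higher ranged from 4 to 12 from PC to P, from 1 to 4 from P to PCC and from 9 to 14 from PC to PCC, and those called lower from 0 to 2, from 1 to 3 and from 0 to 1. The initiation factors called higher ranged from 2 to 11 from PC to P and from 8 to 18 from PC to PCC, where 0 to 1 were called lower. The difference between the steps passed in 3 to 8 synthetases and in 0 to 5 initiation factors.

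Scaled to the same total, 1 synthetase was higher and 4 lower from P to PCC, 2 initiation factors were lower there, 8 synthetases and 8 initiation factors were higher from PC to PCC, and 4 initiation factors differed between the steps. Over all genes this scaling moved the share of upward calls from 54.1% to 33.5% from P to PCC and from 46.7% to 35.1% from PC to PCC, and removal of the length trend moved it from 44.1% to 56.2% from PC to P; edgeR gave 64.2% from P to PCC. Without an eBayes trend, from P to PCC 2 synthetases were higher and 1 lower, and 0 initiation factors differed between the steps. The fit of all 9 libraries called 2 synthetases higher and 1 lower from P to PCC and 2 lower from PC to P. With the length trend removed, 14 initiation factors were higher and 2 synthetases lower from PC to P, and from P to PCC 2 initiation factors were higher and 1 synthetase lower. From P to PCC, edgeR called 1 synthetase lower and 2 initiation factors higher. DESeq2 called 8 synthetases higher, 4 lower and 6 initiation factors higher at this step. Of 11057 genes tested there, DESeq2 called 1695 higher and 1494 lower. From PC to PCC, edgeR called 0 synthetases lower. Keeping only genes with a minimum mean of 10 gave 1 initiation factor higher from P to PCC, and the upper quartile gave 2. The cause of these moves was not tested.

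The replicate letters are not stated to pair libraries, and same-letter correlations were 0.202, 0.0126 and 0.0728 between PC and P, -0.35, 0.0159 and -0.351 between P and PCC and 0.168, -0.0082 and 0.115 between PC and PCC. With the letter as a replicate block, 0 synthetases were higher and 0 lower from P to PCC, 0 were lower from PC to PCC, 0 initiation factors differed between the steps, and over all genes from P to PCC 125 were higher and 45 lower instead of 1077 and 913, with an upward share of 73.5%. Depth limits only the eIF4E paralogs of low level.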
